A study of Mus musculus with 12 samples.

Results

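Solute carriers are membrane proteins that move amino acids, sugars, metals, nucleotides, vitamins and ions across the plasma membrane and the membranes of mitochondria, the Golgi apparatus, endosomes and lysosomes. The genes described here were those whose symbol has the form Slc, a number and a letter, without the 9 carriers Slc1a2, Slc1a3, Slc2a1, Slc2a3, Slc12a2, Slc12a5, Slc16a1, Slc16a3 and Slc32a1. Of 186 such symbols with a probe set assigned to 1 gene, 132 were kept, out of 11361 symbols on the array with such a probe set. A gene was kept when its brightest probe set averaged above a log2 level of 7.1 in at least 1 of the 4 groups of cells, so the members were chosen by their levels on these arrays. Of the 132 genes, 93 lay above this level in all 4 groups, 16 in 3, 6 in 2 and 17 in 1 group. A gene in the last class entered the list through the group where it was high, so its difference from the other groups is given below without a p-value.

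Just inside the level were Slc2a8 (7.11 in its highest group), Slc25a38 (7.12), Slc39a11 (7.13), Slc4a4 (7.14) and Slc25a24 (7.16). Just outside were Slc38a3 (7.07), Slc31a2 (7.06), Slc16a7 (7.04), Slc12a7 (6.996) and Slc41a1 (6.98). The 132 genes span 38 families. They include 4 that are not carriers: Slc9a3r2, a scaffold protein, Slc4a1ap, Slc7a6os and the pseudogene Slc2a4rg-ps.

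Cells came from the cortex of mouse embryos, where interneurons arrive from the medial (MGE) and caudal (CGE) ganglionic eminences of the ventral forebrain. MGE cells at E14.5 and E18.5 came from embryos with the Nkx2-1-Cre transgene (Tg) and the R26R-YFP reporter, fl/fl, in which Cre under Nkx2-1 control switches on YFP in the MGE lineage. CGE cells at E16.5 and E18.5 came from Nkx2-1-Cre;Dlx1-lox-Venus-lox embryos, in which Dlx1 drives Venus and the same Cre removes it from Nkx2-1 descendants, so any Dlx1 cell outside that lineage can keep it. Both genotypes carry Nkx2-1-Cre, tissue was pooled before sorting, and each group has 3 arrays labelled as biological replicates. How many embryos went into each array was not stated, and the p-values measure the spread between these arrays. Lineage cannot be told apart from reporter line in any comparison between MGE and CGE cells, nor from embryonic day in the comparison of E14.5 with E16.5.

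Interneuron precursors of both lineages migrate for several days before they settle, and carriers supply the amino acids, inositol, creatine and metals that growing neurons take up. Some carriers also shape signalling: the Slc1 family clears glutamate or exchanges neutral amino acids, the Slc6 family takes up transmitters and related molecules, and Slc30 and Slc39 proteins move zinc out of and into the cytosol. Glial precursors and neurons use partly different carriers, and bulk values from a sorted pool cannot tell fewer cells of a type from less RNA per cell.

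All 12 arrays had medians between 7.75 and 7.81. Of the 8 interneuron markers, all were measured, and their mean level was 10.2 to 10.5 on the MGE arrays and 11.8 to 12.1 on the CGE arrays. In MGE minus CGE cells, Sp8 and Prox1 were -7.61 and -7.30 at the earlier ages and -7.48 and -2.55 at E18.5. Lhx6 was 2.14 and 1.97. The gap between the means thus depends on the make-up of the list and does not measure interneuron content. Lhx6, a factor of the MGE lineage, was called higher in MGE cells at both ages, and Prox1 and Sp8, factors of the CGE lineage, were called higher in CGE cells. At E18.5 Dlx1, Dlx2, Dlx5 and Gad1 were lower in MGE than in CGE cells too. With age in MGE cells Gad1, Gad2, Dlx1 and Dlx5 fell by 0.43 to 0.82 and Prox1 rose by 4.47. Of 13 markers of oligodendrocyte precursors, 11 were tested, and their mean level was 10.7 to 11.4 on the 3 MGE E18.5 arrays, 7.18 to 7.42 at MGE E14.5 and 6.12 to 6.69 on the 6 CGE arrays. For 9 tested markers of radial glia and astrocytes the mean was 9.89 to 10.2 at MGE E18.5 and 9.10 to 9.46 at CGE E18.5. At the earlier ages it was 7.80 to 8.56 in MGE cells and 8.53 to 8.80 in CGE cells. At E18.5, 7 of the 9 were called higher in MGE cells and Pax6 was called lower (5.56 against 10.81). For 3 microglia markers, all called higher with age in both lineages, the mean was 4.43 to 5.14 at MGE E14.5, 5.17 to 6.32 at CGE E16.5 and 6.91 to 7.97 at E18.5. Of 12 vascular markers only Col4a1 and Rgs5 were tested. Both rose with age in MGE cells (by 0.85 and 2.59), and Col4a1 was higher in late MGE than late CGE cells by 0.69. None of 3 tested markers of pallial glutamatergic neurons was called, and no erythroid marker had a probe set of its own in the table. The part of these cells in the carrier values below was not tested. MGE E14.5 replicates 1 and 2 were closer to each other (SD of their differences 0.199 over 16002 probe sets) than any other pair within a group (0.317 to 0.492).

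Most of these genes differed little between the 4 groups. The gap between a gene's highest and lowest group mean had a median of 0.52 on the log2 scale, and the median SD within a group was 0.19. The gap was under 0.5 for 63 of the 132 genes, at least 1 for 22 and at least 2 for 4, with 3.01 as the widest (Slc1a1). A total of 127 genes could be tested on the probe set that represents them, and 90 of these were called in none of the 4 comparisons between groups at an adjusted p under 0.05. Of the others, 19 were called in 1 comparison, 15 in 2, 2 in 3 and 1 in all 4 (Slc25a30). The share of all genes called in none of the comparisons was not counted. These counts, and those of role groups called in some or no comparison below, therefore do not tell whether solute carriers differ from other genes.

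Among the 127, 19 were higher in MGE than in CGE cells at E18.5 and 5 were lower, or 14.96% and 3.94%, where 13.0% and 9.86% of all 8792 genes tested were called. From E14.5 to E18.5 in MGE cells 16 rose and 4 fell (12.6% and 3.15%), against 11.4% and 9.77% of all genes. From E16.5 to E18.5 in CGE cells 2 rose and 9 fell (1.57% and 7.09%), against 4.52% and 6.39%. Between MGE E14.5 and CGE E16.5, 2 were higher and 2 lower in MGE cells (1.57% each), against 4.15% and 5.9%. The upward shares in late MGE cells thus lay close to those of all genes. Of the 93 genes above the level in every group, 12 were higher and 1 lower in late MGE cells (12.9% and 1.08%). With age, 9 rose and 1 fell in MGE cells (9.68% and 1.08%). In CGE cells 1 rose and 5 fell (1.08% and 5.38%). The shares of all genes under the same restriction were not counted. The median difference between the lineages at E18.5 was 0.09 over the 127 genes and -0.02 over all genes.

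**Figure D1:**
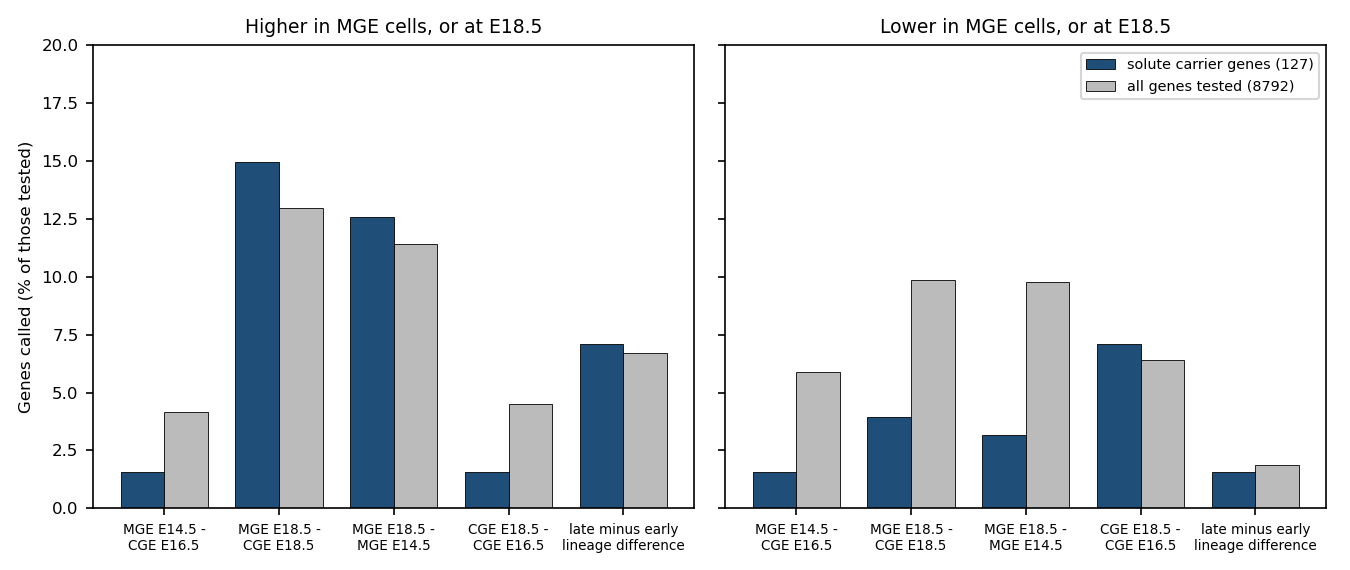
Share of genes called at an adjusted p under 0.05 (y axis, % of genes tested) in each of 5 comparisons (x axis), for the 127 solute carrier genes tested and all 8792 genes, with higher calls on the left and lower calls on the right. At E18.5, 14.96% of the solute carrier genes were higher in MGE cells beside 13.0% of all genes, and 3.94% were lower beside 9.86%.

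The split between higher and lower calls moved with the scaling of the arrays. After quantile normalization the members higher and lower in MGE cells at E18.5 numbered 17 and 12, those that rose and fell in MGE cells 14 and 13, those that rose and fell in CGE cells 4 and 7, and those higher and lower in early MGE cells 5 and 1. Centring each array on its median gave 15 and 9 for MGE cells with age and 7 and 2 for the early comparison.

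The widest difference was that of Slc1a1. It encodes a carrier that takes up glutamate, aspartate and cysteine in neurons. Its level was 9.43, 8.92 and 9.83 on the MGE E18.5 arrays, 7.58, 6.92 and 7.68 at MGE E14.5, 6.69, 6.63 and 7.12 at CGE E16.5 and 7.04, 5.65 and 6.46 at CGE E18.5. All MGE E18.5 arrays lay above the other 9. Its mean was above 7.1 in the MGE groups alone, so it entered the list through them. Its difference from CGE cells is therefore given without a p-value. That difference at E18.5 was 3.01 ± 0.34 (SE), or 8.07-fold (95% confidence interval 2.27 to 3.75 on the log2 scale). The rise from MGE E14.5 was 2.00 ± 0.34 (adjusted p = 0.00149). A second probe set of Slc1a1 gave 3.43 ± 0.25 and 2.37 ± 0.25.

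Slc7a5 encodes the light chain that carries large neutral amino acids such as leucine when paired with the heavy chain encoded by Slc3a2. Slc7a5 read 8.81, 8.77 and 9.34 at MGE E18.5, 6.69, 6.73 and 7.37 at MGE E14.5, 7.36, 7.64 and 7.81 at CGE E16.5 and 7.73, 7.40 and 7.91 at CGE E18.5. The MGE E18.5 arrays stood apart from all others, while those of the other groups ran from 6.69 to 7.91. It rose by 2.05 ± 0.22 in MGE cells with age (4.13-fold, adjusted p = 5.02e-05) and was 1.29 ± 0.22 above CGE E18.5 (adjusted p = 0.00135). Slc3a2 did not move with it: its difference between the lineages at E18.5 was 0.04 ± 0.21 (95% confidence interval -0.42 to 0.50) and its difference with age in MGE cells was 0.31 ± 0.21.

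Slc1a4, an exchanger of serine, alanine and cysteine, read 11.33, 11.17 and 11.79 at MGE E18.5, 10.35, 10.26 and 10.19 at MGE E14.5, 10.71, 10.63 and 11.29 at CGE E16.5 and 10.86, 10.33 and 10.82 at CGE E18.5. Its late MGE arrays overlapped the CGE E16.5 arrays and no others. It rose by 1.17 ± 0.21 with age in MGE cells (adjusted p = 0.00241) and was 0.77 ± 0.21 above CGE E18.5 (adjusted p = 0.0214), a call lost without MGE E18.5 replicate 3 or CGE E18.5 replicate 2 (adjusted p up to 0.0904). The other probe sets of Slc1a4 gave late lineage differences of 0.55 ± 0.185 and 0.75 ± 0.27, not called. Their rises with age in MGE cells, 0.78 ± 0.185 and 0.84 ± 0.27, were called. Slc7a1, a carrier of arginine and lysine, was 10.25, 10.25 and 10.23 at MGE E18.5 against 9.63, 9.29 and 9.43 at MGE E14.5 and 9.58, 9.73 and 9.87 at CGE E18.5. It rose by 0.80 ± 0.12 with age (adjusted p = 0.00058) and was 0.52 ± 0.12 above CGE cells (adjusted p = 0.00806). These calls did not both hold on its second probe set, on the mean of its probe sets or with array weights.

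In all, both members of the Slc1 family were higher in late MGE cells. Of the 15 genes of the Slc3, Slc7, Slc36, Slc38 and Slc43 families 3 were higher, 1 was lower and 11 were not called at E18.5, where 13.0% and 9.86% of all genes were called. Slc36a4, a proton-coupled amino acid carrier, was the one that was lower. Late MGE arrays read 9.20, 9.05 and 8.89 and late CGE arrays 9.78, 10.14 and 9.68, a difference of -0.82 ± 0.13 (adjusted p = 0.000942). All 6 MGE arrays lay below the CGE arrays, although the early difference of -0.36 ± 0.13 was not called. The glutamine carriers Slc38a1 and Slc38a2 were not called on their brightest probe sets, with late lineage differences of 0.07 ± 0.14 and -0.22 ± 0.13, but another probe set of Slc38a2 was lower in MGE cells by -0.70 ± 0.18 (adjusted p = 0.0162). Slc38a10 differed by -0.22 ± 0.13 on its brightest probe set and by -0.54 ± 0.15 and -0.44 ± 0.12 on 2 further ones that were called lower.

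Slc38a9, a lysosomal protein that takes part in amino acid sensing, was the one member called higher in MGE cells at both ages. It was 0.49 ± 0.14 higher at the early pairing (adjusted p = 0.0428) and 0.41 ± 0.14 at E18.5 (adjusted p = 0.0491), but the early call was lost in 15 of 24 alternatives and the late one in 19, and a second probe set gave -0.22 ± 0.19 at E18.5.

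**Figure D2:**
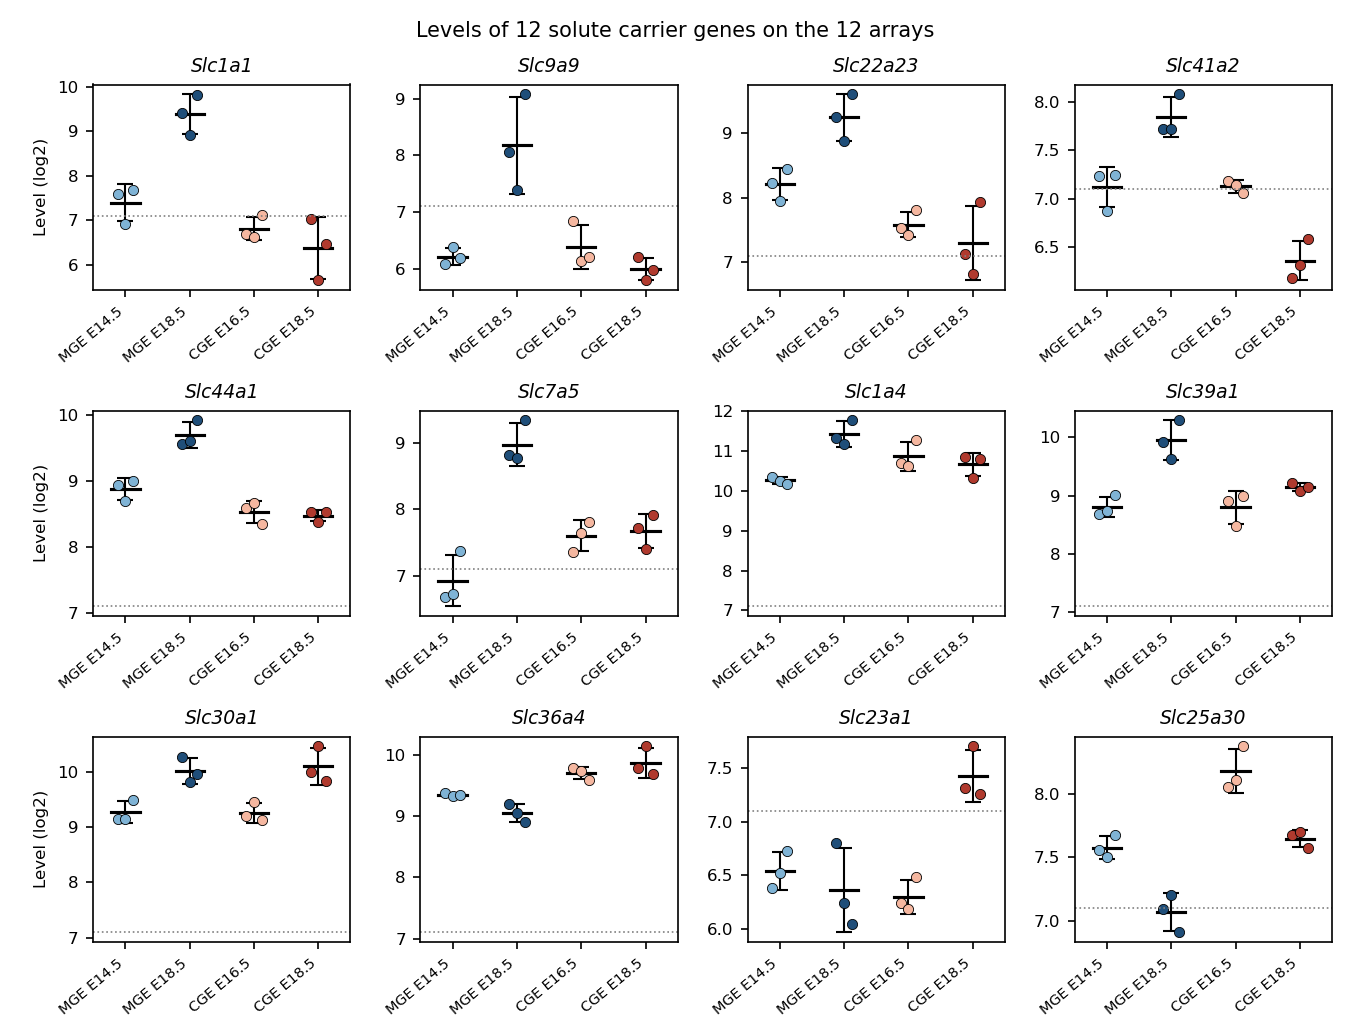
Level (y axis, log2) of 12 solute carrier genes in the 4 groups of cells (x axis); each point is 1 array, the bar is the mean of 3 arrays, the whisker is the SD and the dotted line is the level of 7.1, with a separate scale in each panel. Slc1a1 was 8.92 to 9.83 on the MGE E18.5 arrays and at most 7.68 on the other 9, whereas Slc23a1 was above 7.1 at CGE E18.5 alone.

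The exchangers of protons and sodium split by gene. Slc9a9, an exchanger of endosomes, read 8.06, 7.38 and 9.08 at MGE E18.5 against 6.07, 6.37 and 6.18 at MGE E14.5, 6.83, 6.13 and 6.19 at CGE E16.5 and 6.20, 5.80 and 5.98 at CGE E18.5. It entered the list through MGE E18.5 alone, where it was 2.18 ± 0.34 above CGE E18.5 and 1.97 ± 0.34 above MGE E14.5. Slc9a7, an exchanger of the trans-Golgi network, was likewise highest in late MGE cells. It read 7.86, 7.05 and 7.95 there, against at most 6.09 on every other array. Its probe set was not tested with the rest, because too few of its readings lay above their array's 40th percentile. The late MGE reading of 7.05 was below the lowest such percentile (7.104). Slc9a5, found mainly in neurons, ran the other way. It read 6.52, 6.88 and 7.19 in late MGE cells and 7.58, 8.26 and 7.35 in late CGE cells, a difference of -0.87 ± 0.21 (adjusted p = 0.0123) that missed the threshold without MGE E18.5 replicate 1 (adjusted p up to 0.0627 over its alternatives).

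Slc9a3r2, a scaffold protein, was 1.35 ± 0.34 higher in late MGE than late CGE cells, and it too lay above 7.1 in MGE E18.5 alone. Slc8a3, a sodium/calcium exchanger of neurons, read 8.93, 8.89 and 9.51 in late MGE cells and 8.33, 7.49 and 8.15 in late CGE cells. The difference was 1.12 ± 0.24 (adjusted p = 0.00578). Its relative Slc8a1 differed by 0.47 ± 0.18 in the same direction (adjusted p = 0.0797).

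Slc22a23, a member of the organic ion carrier family with no settled substrate, read 9.24, 8.88 and 9.59 at MGE E18.5, 8.23, 7.95 and 8.45 at MGE E14.5, 7.53, 7.42 and 7.80 at CGE E16.5 and 7.12, 6.83 and 7.93 at CGE E18.5. The 3 late MGE arrays were the highest of the 12 and the 3 early MGE arrays came next. The late lineage difference was 1.94 ± 0.27 (3.85-fold, adjusted p = 0.000245) and the rise with age was 1.03 ± 0.27 (adjusted p = 0.0177). The rise lost its call in 5 of 23 alternatives. They were leaving out MGE E14.5 replicate 1 or 2 or MGE E18.5 replicate 1 or 3, and averaging MGE E14.5 replicates 1 and 2. The other 5 genes of the Slc10, Slc15 and Slc22 families were not called in any comparison.

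Slc44a1, which brings choline into cells for membrane lipid synthesis, read 9.56, 9.60 and 9.93 at MGE E18.5 and 8.94, 8.70 and 9.01 at MGE E14.5. In CGE cells it was 8.59, 8.67 and 8.35 at E16.5 and 8.53, 8.37 and 8.53 at E18.5. Every MGE array thus lay above every CGE array, with late MGE cells highest. The late lineage difference was 1.22 ± 0.14 (adjusted p = 5.73e-05) and the rise in MGE cells was 0.82 ± 0.14 (adjusted p = 0.0015). Its relative Slc44a2 and the fatty acid carrier Slc27a1 were not called.

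Of the 17 metal ion carriers 3 were higher in late MGE than late CGE cells and 4 rose in MGE cells, where 13.0% and 11.4% of all genes did so. Slc41a2, a magnesium carrier, read 7.73, 7.72 and 8.09 at MGE E18.5, 7.24, 6.88 and 7.24 at MGE E14.5, 7.19, 7.15 and 7.06 at CGE E16.5 and 6.18, 6.31 and 6.58 at CGE E18.5. MGE cells at E14.5 and CGE cells at E16.5 read alike, with a difference of -0.01 ± 0.15 between unlike days. At E18.5 the difference was 1.49 ± 0.15 (2.81-fold, adjusted p = 2.35e-05). Slc41a2 rose by 0.73 ± 0.15 in MGE cells (adjusted p = 0.00558) and fell by 0.77 ± 0.15 in CGE cells (adjusted p = 0.0103).

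Slc39a1, a zinc importer of the plasma membrane, read 9.93, 9.63 and 10.30 at MGE E18.5 and between 8.48 and 9.23 on the other 9 arrays. It rose by 1.14 ± 0.18 in MGE cells (adjusted p = 0.000983) and was 0.80 ± 0.18 above late CGE cells (adjusted p = 0.00784). Slc30a1, which exports zinc, rose in both lineages, from 9.15, 9.15 and 9.49 to 10.26, 9.81 and 9.96 in MGE cells and from 9.19, 9.45 and 9.12 to 9.99, 10.46 and 9.83 in CGE cells. The late arrays lay above the early ones in each lineage. The rises were 0.75 ± 0.18 (adjusted p = 0.0141) and 0.84 ± 0.18 (adjusted p = 0.0157), and the lineages did not separate at either age (0.01 ± 0.18 and -0.09 ± 0.18). The CGE rise was not called without CGE E16.5 replicate 3 or CGE E18.5 replicate 2, and the MGE rise was not called without MGE E14.5 replicate 1 or 2 or MGE E18.5 replicate 1. A second probe set of Slc30a1 gave a called MGE rise of 0.74 ± 0.18 and a CGE difference of 0.35 ± 0.18 that was not called. Slc30a4 and Slc30a5 load zinc into vesicles and the secretory pathway. In late MGE cells Slc30a4 was 0.78 ± 0.18 higher than in late CGE cells, and Slc30a5 was 0.45 ± 0.15 higher than in early MGE cells. The zinc importers Slc39a6 and Slc39a10 were not called in any comparison, and Slc39a6 differed between the lineages at E18.5 by 0.02 ± 0.10 (95% confidence interval -0.19 to 0.24).

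Slc5a3 imports myo-inositol together with sodium. It read 9.51, 9.62 and 9.50 in late MGE cells and 7.45, 8.18 and 9.33 in late CGE cells. The MGE arrays agreed closely and lay above all CGE arrays, which spread widely. The difference was 1.22 ± 0.38 (adjusted p = 0.0389). The call was lost without MGE E14.5 replicate 1 and without any array of the late groups except CGE E18.5 replicate 3, with values of 0.79 to 1.73 over the alternatives. At the early pairing Slc5a3 differed by 1.29 (adjusted p = 0.0562), not called in the main fit but called in 8 of 24 alternatives. The late minus the early difference was -0.07, and the difference with age in MGE cells was -0.02, neither called. The phosphate carrier Slc20a2 was higher in late MGE cells by 0.35 ± 0.11 (adjusted p = 0.0408).

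A total of 10 genes were called higher in MGE E18.5 cells than in both CGE E18.5 and MGE E14.5 cells, leaving aside those that lay above 7.1 in 1 group alone: Slc1a1, Slc1a4, Slc7a1, Slc7a5, Slc22a23, Slc25a5, Slc35f1, Slc39a1, Slc41a2 and Slc44a1. They make up 8.7% of 115 such genes tested, beside 6.24% of all genes tested. The share of all genes did not leave aside those above 7.1 in 1 group alone, so the shares cover unlike sets. Slc1a1 lay above 7.1 in the MGE groups alone. For 8 of the 10 all MGE E18.5 arrays lay above the other 9 arrays, which follows in part from how these genes were chosen. For 9 the highest of the 3 was replicate 3, which also had the highest mean of the oligodendrocyte precursor markers, 10 of 11 of them called higher in both comparisons (11.4, against 10.9 and 10.7), and of the radial glia and astrocyte markers (10.2, against 10.02 and 9.89). Without that array all 10 stayed higher in both comparisons and 6 stayed called in both, the exceptions being Slc1a4, Slc22a23, Slc25a5 and Slc35f1. Slc9a9 and Slc35f5, high in MGE E18.5 cells alone, are left out of these counts. How often genes in general separate in this way, or are highest on replicate 3, was not counted.

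Promoters are shown for the 5 genes with the largest late lineage difference among those of the 10 that had an entry, because these genes rose together in late MGE cells and their start regions can be compared. Each is the 150 bases before the gene's most upstream RefSeq start in the table (GRCm38.p6), 5′ to 3′ on the gene's strand. Capitals mark the GC box GGGCGG or its reverse complement, which the windows of Slc41a2 and Slc39a1 do not hold.
Slc1a1, chr19:28834985-28835134, plus strand: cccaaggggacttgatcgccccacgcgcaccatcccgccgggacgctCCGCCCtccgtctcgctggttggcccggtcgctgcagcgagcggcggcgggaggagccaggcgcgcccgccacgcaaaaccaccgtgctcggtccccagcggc
Slc22a23, chr13:34345219-34345368, minus strand: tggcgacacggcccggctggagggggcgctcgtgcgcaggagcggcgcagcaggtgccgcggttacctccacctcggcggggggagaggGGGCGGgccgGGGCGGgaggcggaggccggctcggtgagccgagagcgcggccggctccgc
Slc41a2, chr10:83337818-83337967, minus strand: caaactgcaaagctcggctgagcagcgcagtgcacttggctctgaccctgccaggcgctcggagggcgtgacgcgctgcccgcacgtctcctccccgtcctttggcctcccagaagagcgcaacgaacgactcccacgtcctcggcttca
Slc44a1, chr4:53440263-53440412, plus strand: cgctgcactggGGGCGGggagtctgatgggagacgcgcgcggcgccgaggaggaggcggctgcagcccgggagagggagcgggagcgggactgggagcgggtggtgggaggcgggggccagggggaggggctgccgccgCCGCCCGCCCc
Slc39a1, chr3:90248042-90248191, plus strand: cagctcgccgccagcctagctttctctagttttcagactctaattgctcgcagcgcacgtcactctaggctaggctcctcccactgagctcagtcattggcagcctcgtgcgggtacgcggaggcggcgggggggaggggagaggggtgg

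Slc1a1, Slc22a23 and Slc44a1 start in sequence rich in G and C (76.0%, 81.3% and 81.3% of the 150 bases), Slc41a2 and Slc39a1 less so (66.0% and 64.0%). In the 250 bases before the start, Slc39a1 has 17 CG dinucleotides, Slc41a2 18, Slc1a1 27, Slc22a23 32 and Slc44a1 38, where the median was 17 over the 7168 tested genes with an entry and 15.5 over the 106 solute carrier genes with one. Of the 10 genes 9 had an entry, and 8 of these held the GC box on either strand within 250 bases (88.9%), against 68.9% of the solute carrier genes, 62.3% of tested genes and 33.0% of all 27025 promoters. TATAAA and ACAAAG, the core that SOX factors bind, were in none of the 9, where 5.6% and 11.6% of tested genes and 3507 and 4452 of all promoters held them. CAGCTG, one form of the E-box, was in 1 of the 9, against 10.6% of tested genes and 12.7% of all. All motifs were searched on both strands, and none contains another. These matches describe the sequence and are not evidence of binding.

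**Figure D3:**
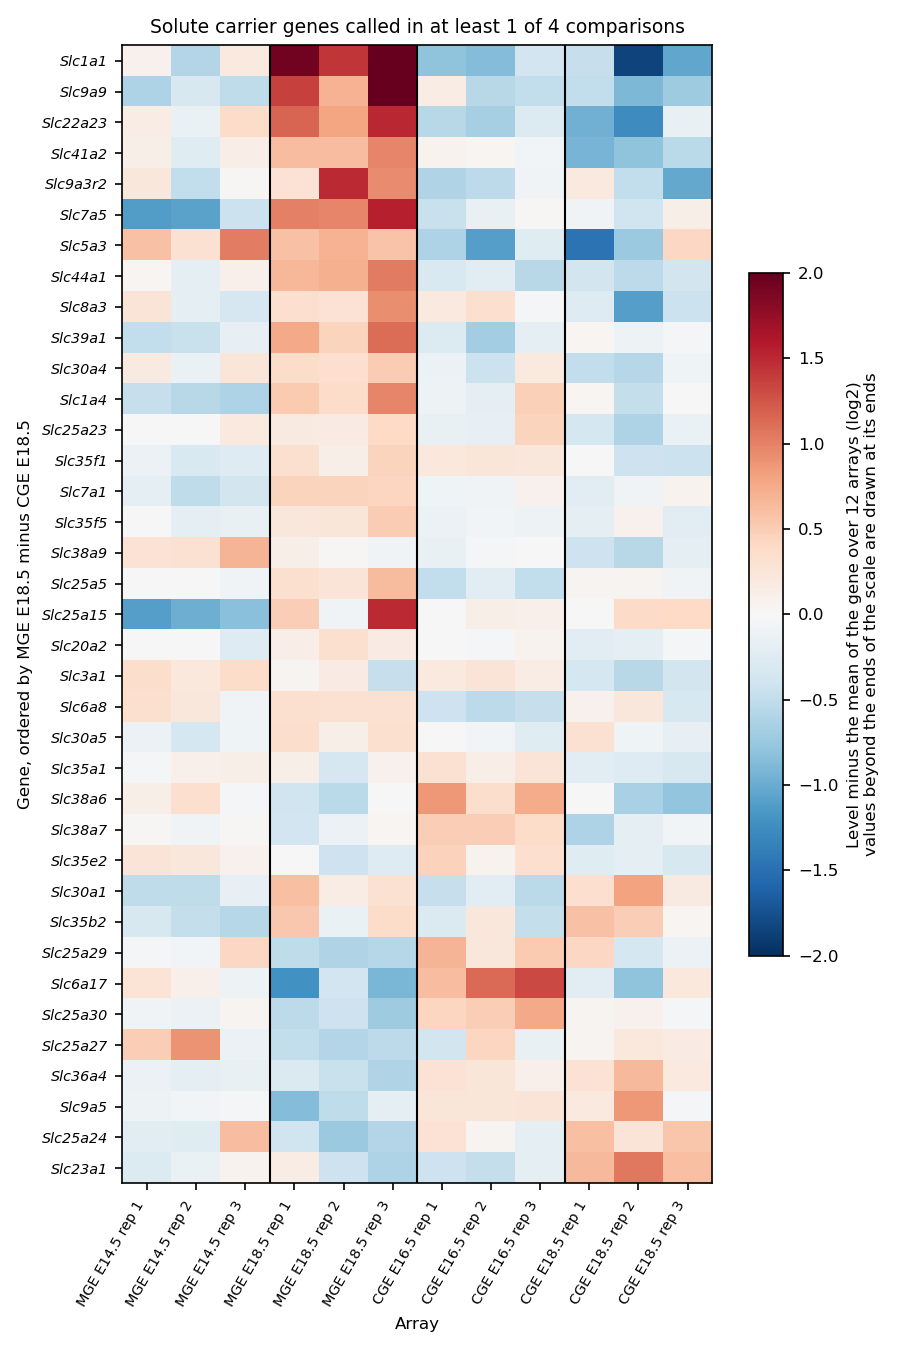
Levels of the 37 solute carrier genes called in at least 1 of 4 comparisons (rows) on the 12 arrays (columns), as the difference from the gene's own mean (colour, log2), ordered by MGE E18.5 minus CGE E18.5. Most of the upper rows are highest on the 3 MGE E18.5 arrays, led by Slc1a1 with a late lineage difference of 3.01, and the lowest row is Slc23a1 with -1.07.

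Genes that were lower in late MGE cells were fewer. Slc25a30, a mitochondrial carrier related to the uncoupling proteins, was called in all 4 comparisons. It read 7.55, 7.50 and 7.67 at MGE E14.5, 7.09, 7.20 and 6.91 at MGE E18.5, 8.05, 8.11 and 8.38 at CGE E16.5 and 7.67, 7.70 and 7.57 at CGE E18.5. It was lower in MGE cells at both pairings (-0.60 ± 0.12, adjusted p = 0.00787, and -0.58 ± 0.12, adjusted p = 0.00486) and fell with age in both lineages (by 0.51 ± 0.12 and 0.53 ± 0.12). A second probe set of Slc25a30 that passed the filter was called in none, with 0.44 ± 0.25 for the early and -0.40 ± 0.25 for the late lineage difference. A dimmer probe set that did not pass the filter moved as the main one in all 4, with -0.61 ± 0.14 and -0.86 ± 0.14 for the lineage differences. The probe sets thus disagree, and the main one is of a kind that can match related transcripts.

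Slc23a1, a carrier of vitamin C, read 7.31, 7.71 and 7.26 at CGE E18.5 and 6.04 to 6.80 on the other 9 arrays. It entered the list through CGE E18.5 alone, where it was 1.07 ± 0.20 above late MGE cells and 1.13 ± 0.20 above CGE E16.5. Its relative Slc23a2 was not called. Slc25a24, a mitochondrial carrier of ATP with magnesium and phosphate, was likewise above 7.1 in CGE E18.5 alone, at 7.29, 6.95 and 7.25 against 6.29, 5.95 and 6.11 in late MGE cells. Slc4a4, a sodium bicarbonate carrier, read 7.06, 7.41 and 6.95 at CGE E18.5 and at most 6.44 elsewhere on a probe set too dim to test with the rest. Another of its probe sets passed the filter and was -2.45 ± 0.28 in MGE minus CGE cells at E18.5 and -1.71 ± 0.28 at the early pairing, and it stood 1.32 ± 0.28 and 2.06 ± 0.28 higher at E18.5 than earlier in MGE and CGE cells.

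Among 31 mitochondrial carriers 30 were tested, 7 were called in some comparison and 23 in none. At E18.5, 2 were higher in MGE cells (Slc25a5 and Slc25a23) and 2 lower (Slc25a24 and Slc25a30), against 13.0% and 9.86% of all genes. Slc25a15, which exchanges ornithine and citrulline, read 6.01, 6.14 and 6.29 at MGE E14.5, 7.61, 7.04 and 8.61 at MGE E18.5, 7.13, 7.24 and 7.22 at CGE E16.5 and 7.13, 7.50 and 7.52 at CGE E18.5. The early MGE arrays lay below all others. The rise in MGE cells was 1.61 ± 0.30 (adjusted p = 0.00265) and the early lineage difference -1.05 ± 0.30 (adjusted p = 0.0445), the latter lost in 13 of 22 alternatives.

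Slc25a4 and Slc25a5 exchange ADP and ATP across the inner membrane, and Slc25a3 brings in phosphate. Slc25a4 was not called and differed by 0.20 ± 0.11 between the lineages at E18.5 (95% confidence interval -0.04 to 0.45). Slc25a5 was 11.16, 11.10 and 11.48 in late MGE cells and 10.90, 10.89 and 10.78 in late CGE cells, a difference of 0.39 ± 0.12 (adjusted p = 0.0408) lost in 13 of 24 alternatives. Slc25a3 differed by 0.05 ± 0.13 on its main probe set and by -1.27 ± 0.36 on a dimmer one (adjusted p = 0.0259), so the probe sets disagree. In MGE cells with age, Slc25a27, an uncoupling protein of brain mitochondria, fell from 11.14, 11.56 and 10.54 to 10.17, 10.07 and 10.13, by 0.96 ± 0.24 (adjusted p = 0.0154), a call lost without MGE E14.5 replicate 1 or 2. Slc25a29, a carrier of basic amino acids, fell by 0.66 ± 0.20 (adjusted p = 0.0347), a call lost without any single array of the MGE groups.

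Of the 4 tested genes of the Slc6 family, which take up transmitters and related molecules, 2 were called. Of all genes, 9.77% fell with age in MGE cells, 6.39% fell in CGE cells and 4.15% were higher in early MGE cells. Slc6a17, a carrier of neutral amino acids on synaptic vesicles, fell with age in both lineages, from 8.06, 7.89 and 7.69 to 6.58, 7.41 and 6.87 in MGE cells and from 8.41, 8.92 and 9.11 to 7.57, 6.98 and 8.01 in CGE cells. The late arrays lay below the early ones in each lineage. The falls were 0.93 ± 0.28 (adjusted p = 0.0351) and 1.29 ± 0.28 (adjusted p = 0.0146). A second probe set of Slc6a17 fell by 0.88 ± 0.26 and 1.13 ± 0.26, both called. Without 1 of the MGE arrays other than MGE E18.5 replicate 2, or without CGE E16.5 replicate 3 or CGE E18.5 replicate 2, the call in that lineage was lost.

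Slc6a8, which takes up creatine, was higher in early MGE cells at 9.94, 9.85 and 9.55 against 9.21, 9.10 and 9.17 at CGE E16.5 (0.62 ± 0.15, adjusted p = 0.018), and 0.32 ± 0.15 at E18.5 (adjusted p = 0.145). Its second probe set gave 0.23 ± 0.28 for the early difference, and the call was lost without MGE E14.5 replicate 1 or 2 or CGE E16.5 replicate 2. Slc6a15 and the brightest probe set of the taurine carrier Slc6a6 were not called. Another probe set of Slc6a6 was called lower with age in CGE cells (-0.66 ± 0.18), and 2 further ones gave -0.53 ± 0.18 and -0.61 ± 0.18, not called. Slc6a9, a glycine carrier, was above 7.1 in MGE E18.5 alone, through replicate 3 (8.52, against 6.75 and 6.94), and its probe set was not tested with the rest.

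Slc18a2, the vesicular monoamine carrier, read 8.21, 7.96 and 6.54 at CGE E18.5, 7.81, 6.42 and 7.01 at CGE E16.5 and 6.45 to 6.85 on the 6 MGE arrays. Its CGE arrays overlapped the MGE arrays, and the late difference of -0.98 ± 0.40 was not called. Slc17a5, a lysosomal carrier of sialic acid, and Slc18b1, a vesicular polyamine carrier, were not called.

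Of the 16 nucleotide sugar carriers and their relatives, which supply the Golgi apparatus for glycosylation, 2 were higher in late MGE cells and 3 rose in MGE cells, both counts including Slc35f5, and 3 fell in CGE cells. The shares of all genes were 13.0%, 11.4% and 6.39%. Slc35f1, a relative of no settled substrate, moved in opposite directions. It read 11.67, 11.48 and 11.54 at MGE E14.5, 12.11, 11.91 and 12.24 at MGE E18.5, 12.01, 12.04 and 12.01 at CGE E16.5 and 11.79, 11.38 and 11.36 at CGE E18.5. The rise in MGE cells was 0.52 ± 0.14 (adjusted p = 0.0176), the fall in CGE cells 0.51 ± 0.14 (adjusted p = 0.0328) and the late lineage difference 0.58 ± 0.14 (adjusted p = 0.00927). Over 24 alternatives the CGE fall lost its call in 9, the MGE rise in 4 and the late lineage difference in 2. A second probe set kept these directions. Its MGE rise of 0.76 ± 0.17 was called, its CGE fall and late lineage difference were not, and it was called lower in MGE cells at the early pairing (-0.70 ± 0.17). Slc35b2, which brings sulphate donors into the Golgi, rose by 0.72 ± 0.22 in MGE cells. Slc35e2 and Slc35a1, the carrier of activated sialic acid, fell by 0.54 ± 0.14 and 0.50 ± 0.13 in CGE cells.

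**Figure D4:**
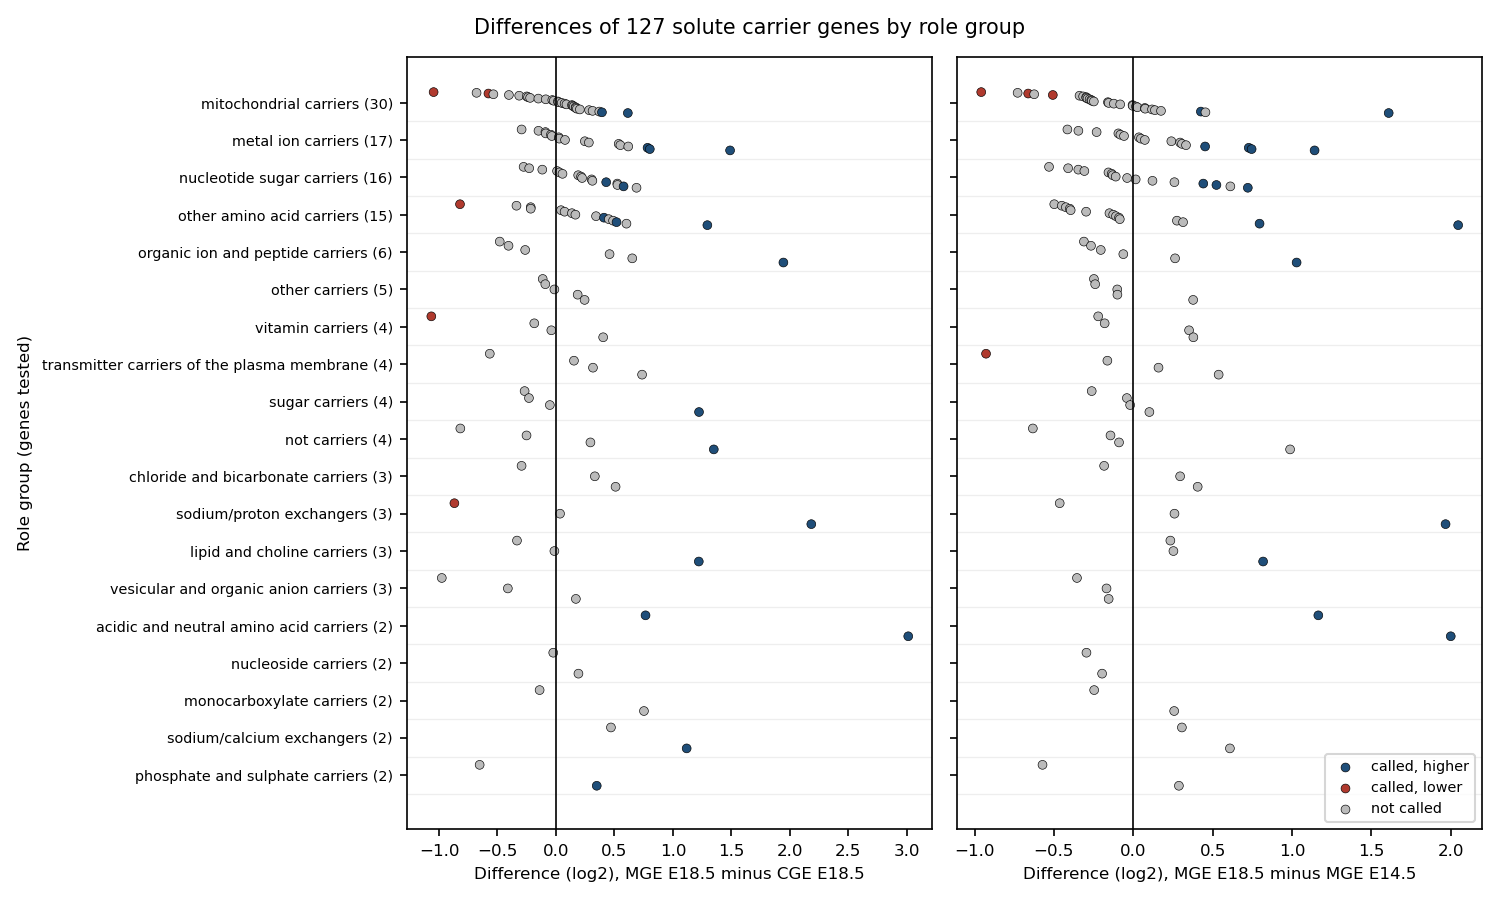
Difference (x axis, log2) of each of the 127 solute carrier genes tested, by role group (y axis), for MGE E18.5 minus CGE E18.5 on the left and MGE E18.5 minus MGE E14.5 on the right; each point is 1 gene, coloured by its call. Most points lie within 0.5 of zero, and the points farthest to the right are Slc1a1 (3.01) on the left and Slc7a5 (2.05) on the right.

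Besides Slc6a17, Slc25a30, Slc35a1, Slc35e2, Slc35f1 and Slc41a2, the genes that fell in CGE cells with age were amino acid carriers. Slc38a7, a lysosomal exporter of glutamine, went from 8.20, 8.19 and 8.07 to 7.08, 7.51 and 7.64, a fall of 0.74 ± 0.15 (adjusted p = 0.0125). Slc3a1, a heavy chain partner of cystine and basic amino acid carriers, went from 8.88, 8.94 and 8.84 to 8.34, 8.12 and 8.32, a fall of 0.63 ± 0.15 (adjusted p = 0.0229). Slc38a6, above 7.1 in CGE E16.5 alone, went from 7.64, 7.12 and 7.51 to 6.77, 6.12 and 5.98. The ages did not overlap in any of the 3. This follows in part from their choice as genes called lower, and for Slc38a6 from its entry through CGE E16.5. The Slc3a1 call was lost without CGE E16.5 replicate 2 or 3 or CGE E18.5 replicate 2. The count of 9 falls was 15 without CGE E18.5 replicate 1, 4 without CGE E18.5 replicate 2 and 3 without CGE E16.5 replicate 3. In MGE cells the 16 rises were 9 without MGE E14.5 replicate 2 and 10 without MGE E18.5 replicate 3, and the 4 falls were 1 without MGE E14.5 replicate 1 or MGE E18.5 replicate 3, 2 without MGE E14.5 replicate 2 and 7 without CGE E18.5 replicate 3.

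The early comparison rests on 4 genes, with Slc6a8 and Slc38a9 higher in MGE cells and Slc25a15 and Slc25a30 lower. The count of 2 higher ranged from 0 to 5 and moved without any array other than MGE E18.5 replicate 3. The count of 2 lower was 1 without MGE E14.5 replicate 1 or 2, CGE E16.5 replicate 2 or MGE E18.5 replicate 1, and 4 without CGE E18.5 replicate 2.

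The change of the lineage difference was tested directly, as the late difference minus the early one. It was called for 11 genes, 9 with a late difference shifted towards MGE cells and 2 towards CGE cells (7.09% and 1.57% of the 127, against 6.72% and 1.87% of all genes). The MGE groups are farther apart in age than the CGE groups, so lineage and interval cannot be told apart here. Shifts towards MGE cells were 1.97 ± 0.32 for Slc7a5 (adjusted p = 0.00201) and 1.499 ± 0.21 for Slc41a2 (adjusted p = 0.000895). That of Slc1a1 was 2.43 ± 0.48, given without a p-value because the gene entered the list through the MGE groups alone. Slc1a4, Slc8a3, Slc35f1, Slc44a1 and Slc7a1 shifted the same way by 0.85 to 1.38. The Slc8a3 call was lost in 6 of 22 alternatives, among them leaving out MGE E14.5 replicate 2 or 3, CGE E16.5 replicate 1 or 2 or MGE E18.5 replicate 3, and a second probe set of Slc1a4 gave 0.85 ± 0.26, not called. Slc20a1, a phosphate carrier, moved towards CGE cells (-1.26 ± 0.32, adjusted p = 0.0326). It read 8.67, 8.40 and 8.01 and then 7.87, 7.61 and 7.88 in MGE cells with age, and 8.0, 8.01 and 7.24 and then 8.46, 8.67 and 8.17 in CGE cells, so the order of the lineages turned although neither lineage difference was called by itself. This call was lost in 11 of 23 alternatives.

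Of 50 other genes of solute transport, among them the 9 carriers left out by name, the sodium and calcium pumps and the ABC carriers, 33 were tested. At E18.5, 14 were higher in MGE cells and 1 was lower (Spns2), with a median difference of 0.47. In MGE cells with age 11 rose and 8 fell. In CGE cells 2 rose (Atp1b1 and Slc1a3) and 5 fell, and at the early pairing 3 were higher and 2 lower in MGE cells. Of all genes tested, 13.0% were higher and 9.86% lower in MGE cells at E18.5. With age 11.4% rose and 9.77% fell in MGE cells, and 4.52% rose and 6.39% fell in CGE cells. At the early pairing the shares were 4.15% and 5.9%. The list includes Slc1a2 and Slc1a3, which are also among the markers of radial glia and astrocytes. Mfsd2a, a carrier of lysolipids bearing docosahexaenoic acid, averaged 10.1 in late MGE cells and 6.06 in late CGE cells. Slc1a3, a glutamate carrier of radial glia and astrocytes, averaged 10.02 against 7.29. The vesicular GABA carrier Slc32a1 averaged 11.8 and 11.2 in early and late MGE cells and 11.8 and 11.2 in CGE cells, with a late lineage difference of 0.02 ± 0.17.

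No gene was called in any of the 4 comparisons among the 2 monocarboxylate carriers, the 2 nucleoside carriers and the 5 carriers of other families, nor among the chloride and bicarbonate carriers other than Slc4a4. Over the 5 genes whose probe set did not pass the filter, the filter set at the level of 7.1 gave late lineage differences of 2.10 ± 0.29 for Slc9a7, 1.54 ± 0.38 for Slc6a9, 0.76 ± 0.28 for Slc45a4, -0.27 ± 0.23 for Slc25a38 and -0.80 ± 0.14 for Slc4a4. These are values without a test, since those probe sets were kept for the group where they are high.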

How the data were processed

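Expression was measured on 12 Affymetrix whole-genome mouse arrays from sorted, amplified cortical cells, 3 per group. The authors corrected and normalised the arrays in Bioconductor and deposited log2 values; their processing notes name MAS5, its version and role not given in the sources used here, and no detection calls were used. Probe sets were named from platform annotation: 22343 of 27094 had 1 symbol. A probe set was kept above its array's 40th percentile on at least 3 arrays (8792 genes, brightest probe set per gene). One limma 3.58.1 fit in R 4.3.3 held all arrays and 4 group means, with two-sided Benjamini-Hochberg p-values over these genes and calls under 0.05. It was tested on simulated data. Carriers were named by the size of their difference or level and by fixed role lists; Slc7a1, Slc20a2, Slc25a23, Slc30a4, Slc30a5, Slc35a1, Slc35b2 and Slc35f5 were added after their values were seen. Members and lists were chosen with earlier results of these data known. Arrays have no read depth, so their number limits precision. Promoters are from RefSeq. The alternatives are in the closing section.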

Additional observations from a re-analysis of the deposited data

Results flagged for a closer look

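Among the carriers named by rule, 10 had a rise or fall with age that differed between the MGE and CGE lineages in limma's test of the difference itself. The value is the log2 change in MGE cells minus that in CGE cells. It was 2.43 for Slc1a1, 2.36 for Slc9a9, 1.97 for Slc7a5 and 1.499 for Slc41a2. It was 1.38 for Slc8a3, 1.37 for Slc1a4, 1.04 for Slc35f1 and 0.88 for Slc44a1. The Slc8a3 value lost its call in 6 of 22 alternatives, that of Slc1a4 on its second probe set (0.85) and that of Slc20a1 in 11 of 23. It was -1.31 for Slc23a1 and -1.26 for Slc20a1. Slc9a9 and Slc23a1 entered the list through a single group, and Slc1a1 through the MGE groups alone, so their values are descriptions.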

How the results depend on the processing

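Of 5487 results for single carriers under 24 alternatives, 5154 kept direction and call, 183 lost the call, 145 gained one and 5 turned: Slc25a30 on its second probe set (0.44 early, 0.40 in CGE cells with age), Slc25a3 late (-0.61 as the mean of kept probe sets, -1.27 on the second), and Slc38a9 late on its second (-0.22). Counts of carriers called, by alternative, were as follows, and the cause was not tested except that the stricter filter and the second probe set test fewer genes. Early, higher in MGE (2): no filter 1, stricter filter 4, quantile normalization 5, median centring 7, array weights 11, MGE E14.5 replicates 1 and 2 averaged 0. Early, higher in CGE (2): no filter 1, second probe set 1, quantile 1, averaged 1, intensity trend 5, weights 12, only the 2 groups 6. Late, higher in MGE (19): second probe set 10, weights 12. Late, higher in CGE (5): stricter filter 1, mean of probe sets 8, quantile 12. Rises in MGE cells (16): second probe set 7, averaged 10. Falls (4): mean of probe sets 8, quantile 13, centring 9, weights 26, only the 2 groups 7, averaged 1. Rises in CGE cells (2): second probe set 1, quantile 4, weights 1, only the 2 groups 1. Falls (9): second probe set 3, weights 4, only the 2 groups 0. Change towards MGE (9): second probe set 3. Towards CGE (2): stricter filter 1, mean of probe sets 4, averaged 1, and 1 without any of MGE E14.5 replicates 1 and 2, CGE E16.5 replicate 3, the MGE E18.5 arrays or CGE E18.5 replicate 2.

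Leaving out 1 array gave 0 to 5 and 1 to 4 early calls (higher in MGE, in CGE), 13 to 20 and 4 to 7 late calls, 9 to 17 rises and 1 to 7 falls in MGE cells, 1 to 3 rises and 3 to 15 falls in CGE cells, and 8 to 12 and 1 to 3 changes. Rises in CGE cells were 1 without CGE E16.5 replicate 3 or CGE E18.5 replicate 2. Over all groups, correlations of deviations were -0.17 to 0.28 for the same replicate number and -0.23 to 0.30 for different ones. For MGE E14.5 with CGE E16.5 they were 0.07, 0.19 and 0.28 for the same number and -0.23 to 0.13 for different ones. For CGE E16.5 with CGE E18.5 the same number gave -0.17, -0.15 and 0.13. Whether replicate numbers mark a pairing cannot be told from these values. A replicate block gave 4 early calls higher in CGE instead of 2, and other counts within 1.5 times. Signals near background have no detection calls, which limits the dim carriers.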
